A study of Mus musculus with 8 samples.

Results

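The genes described here carry peptide antigens to the cell surface: the MHC genes of the mouse H2 region and the genes that cut, move and load the peptides. They were taken from the deposited gene count table by symbol, as every symbol that starts with H2- together with B2m, Tap1, Tap2, Tapbp, Tapbpl, Psmb8, Psmb9, Psmb10, Psme1, Psme2, Erap1, Cd74, Ciita and Nlrc5. This gave 41 genes of the 18306 in the table, 28 with an H2 symbol and 13 of the 14 others; Psmb9 was not found under that symbol and is not analysed here. The set was proposed with results of the S1P comparison in view, so the differences given below describe these libraries and are no independent support for the choice of genes.

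The cells were C3H10T1/2, an established mesenchymal line from mouse embryo that can be turned towards bone, fat, cartilage or muscle in culture. Both groups were first held in medium without serum for 24 h. One group of 4 libraries (replicates 5 to 8) then received 5 µM sphingosine 1-phosphate (S1P), a lipid that acts through G protein-coupled receptors, for 24 h, and the other 4 (replicates 1 to 4) received the albumin carrier alone. Whether the 4 libraries of a group are separate cultures is not stated, so p-values measure the spread between these samples, which may be technical.

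MHC class I molecules consist of a heavy chain and the light chain beta-2-microglobulin, and show peptides from the cytosol to CD8 T cells and natural killer cells. The proteasome cuts these peptides, the TAP transporter carries them into the endoplasmic reticulum, tapasin holds TAP and the heavy chain together, and an aminopeptidase trims the peptides. Class II molecules show peptides from endocytosed material, need the invariant chain Cd74 and the DM exchange factor, and are mostly found on professional antigen-presenting cells. Interferons raise most of these genes, through STAT and IRF factors and through the coactivators Nlrc5 (class I) and Ciita (class II).

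After S1P, 8 of the 41 genes fell and none rose: Tapbp, Tap1, Tap2, Psmb8, Psme1, Cd74, H2-T23 and H2-T24. Of the 41, 27 had enough counts to be tested and 14 did not, 19 of the 27 did not pass the test, and 26 of the 27 had a negative log2 fold change (S1P minus vehicle), as had 53.9% of all tested genes. The median log2 fold change of the tested genes was -0.84, against -0.04 over all 11844 tested genes. The test was edgeR's quasi-likelihood test over the whole table with Benjamini-Hochberg adjustment at 0.05, in which 8.5% of tested genes passed, 2.9% lower and 5.6% higher. Before adjustment, 20 of the 27 had p under 0.05 and were lower, and 0 were higher, beside 11.7% and 13.2% of all tested genes. No gene of the set was called higher by DESeq2 or limma-voom either. Nothing is read from these shares about the set, since the contrast was known when it was chosen.

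The count of 8 depended on single libraries. Omitting S1P replicate 6 or 8 left 3 calls, omitting S1P replicate 7 left 4, omitting vehicle replicate 3 left 5, and omitting any of the others gave 6 to 10. DESeq2 called 13, and leaving out vehicle replicate 4 and S1P replicate 5 together gave 14. Tapbp, Tap1 and Cd74 were called in all 16 alternative analyses. In 25 of the 27 the sign held in every alternative; the exceptions were H2-Q6 and H2-Ke2.

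**Figure D1:**
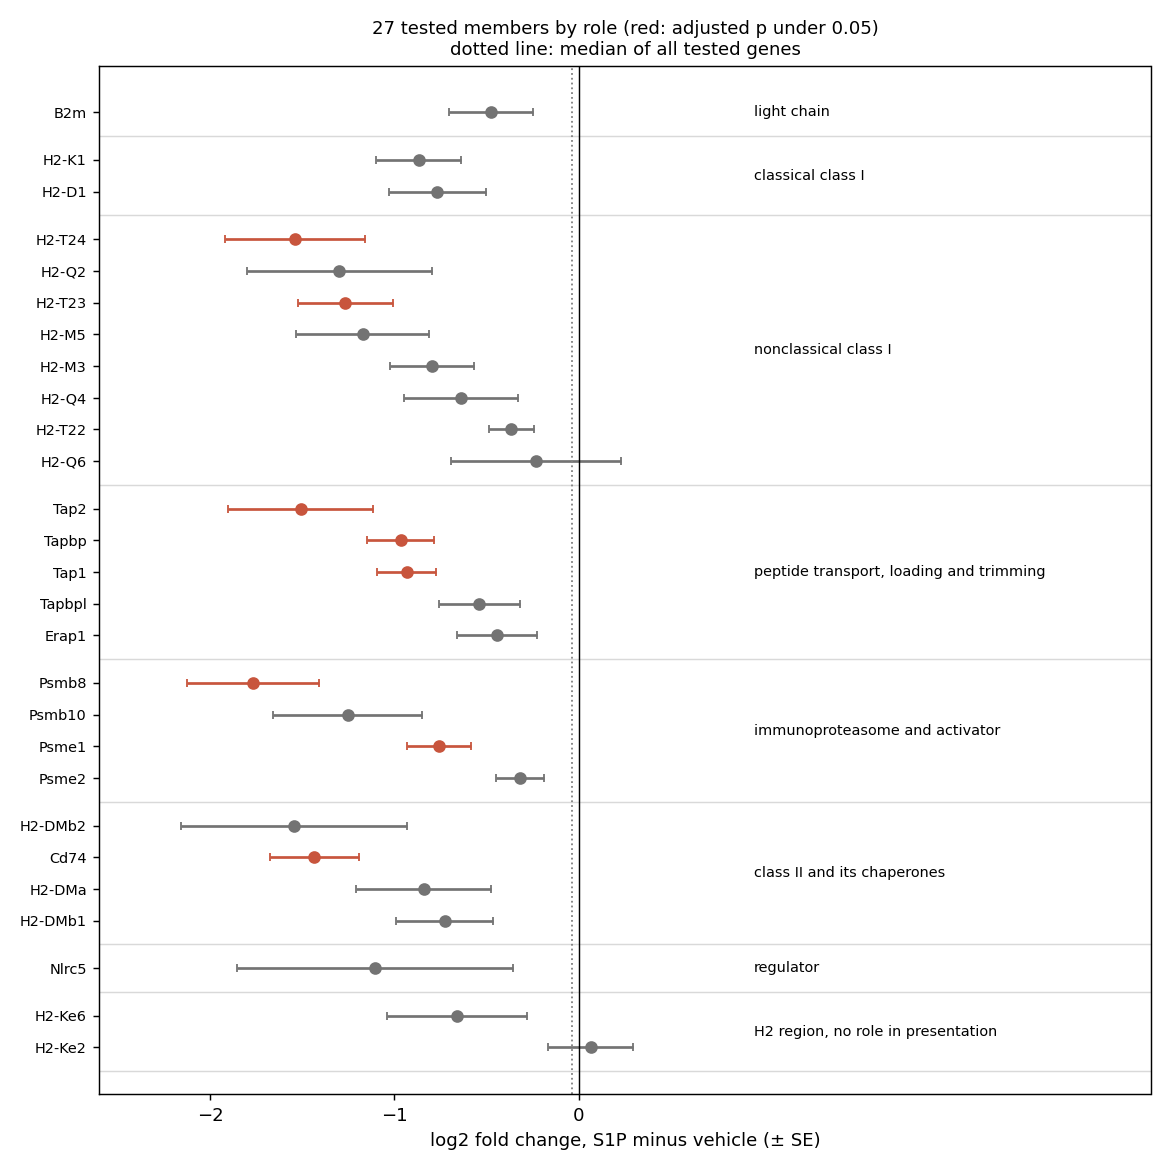
Log2 fold change of each of the 27 tested genes (horizontal axis, S1P minus vehicle, 4 libraries per group, bars are SE), grouped by role, with red for the 8 genes past the threshold and a dotted line at the median of all tested genes. All points but that of H2-Ke2 lie left of 0, and the red points are spread over 4 roles.

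The libraries were even in depth, with 13750303 to 13761544 counts each, so 3 counts, the limit that a count of 0 allows, amount to 0.213 to 0.222 CPM (the count relative to the effective library size; counting error only). The 41 genes took 28567 to 39167 counts in the vehicle libraries and 17079 to 25987 in the S1P libraries. Among the 25 tested genes with a role in presentation, the mean log2(CPM + 0.5) was 4.27 to 4.72 in vehicle and 3.46 to 4.05 after S1P, so these means did not overlap. Vehicle replicate 3 was the highest of all 8 libraries for 12 of the 25 genes, vehicle replicate 4 for 9 and vehicle replicate 1 for 4, and S1P replicate 6 was the lowest for 17. S1P replicate 5 was the highest S1P library for 18 of them. Of mesenchymal markers all 9 of 9 were tested and none passed, with summed levels of 11070 to 18000 CPM in vehicle and 10210 to 13680 CPM after S1P, which matches the labelled cell type.

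**Figure D2:**
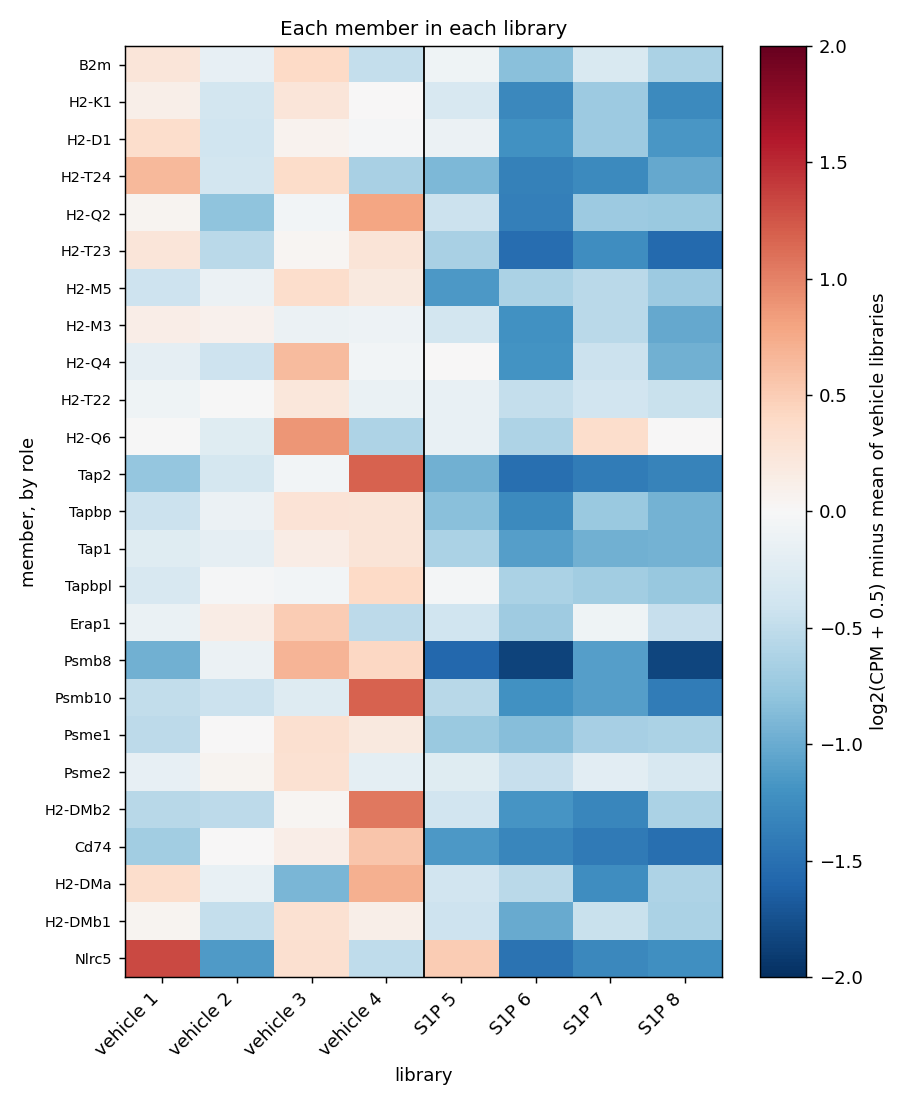
Each of 25 tested genes (rows, by role) in each library (columns), as log2(CPM + 0.5) minus the mean of the 4 vehicle libraries. Blue (below the vehicle mean) prevails in the S1P columns, and S1P replicate 6 is the lowest of the 8 libraries for 17 genes. S1P replicate 5 is paler for H2-K1, H2-D1, B2m and H2-Q4, and above the vehicle mean for Nlrc5.

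Levels per length differed widely within the pathway. In vehicle, B2m had 1207 CPM per kb of exon, Psme2 106.8, Tapbp 91.6, Psme1 53.3, H2-K1 36.15, Cd74 23.03, Erap1 22.3 and H2-D1 20.7 (means of 4 libraries; exon lengths from GENCODE M21). Tap1 and Tap2, which pair in 1 transporter, stood at 6.63 and 15.15 CPM per kb, and Psmb8 at 5.55. B2m was above every other gene of the set in each library. The neighbours Cd74, Erap1, H2-T22 and H2-D1, at 20.7 to 23.03 CPM per kb, overlapped in their vehicle libraries, so their order is not resolved.

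**Figure D3:**
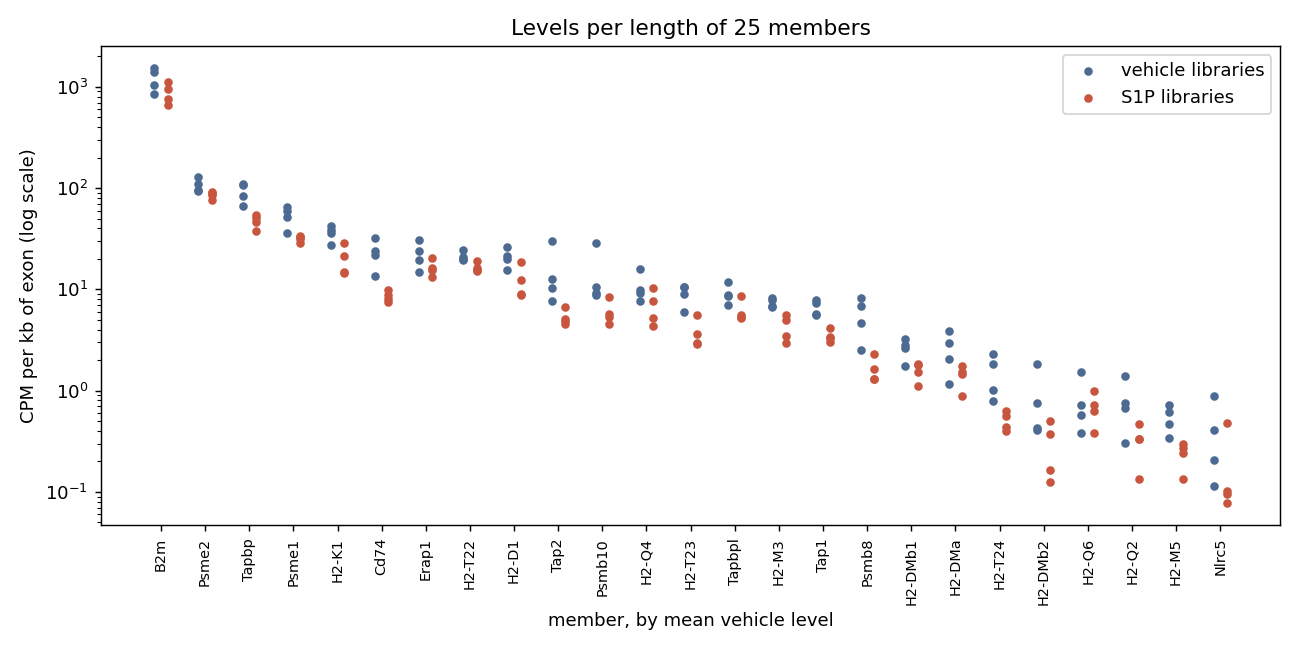
CPM per kb of exon (log axis) of 25 tested genes in each vehicle (blue) and S1P (red) library, ordered by the vehicle mean. B2m lies above every other gene in each library, and Nlrc5 has the lowest vehicle mean, at 0.403 CPM per kb, though not the lowest value in every library.

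Among the heavy and light chains of classical class I, all S1P means were lower and none of the genes passed the test. B2m, the light chain shared by all class I molecules (chromosome 2, 121973222 to 121979019 in mm9), had 1195, 899, 1329 and 729 CPM in vehicle replicates 1 to 4 and 954, 564, 819 and 648 CPM in S1P replicates 5 to 8. The groups overlapped, since vehicle replicate 4 lay below S1P replicates 5 and 7, and the log2 fold change was -0.48 (SE 0.23, edgeR adjusted p = 0.229). H2-K1, a heavy chain that presents peptides to CD8 T cells (chromosome 17, 34132762 to 34137478), had 113.8, 81.4, 124 and 105 CPM in vehicle and 83.75, 42.6, 63.2 and 43.15 CPM after S1P. Only S1P replicate 5 reached into the vehicle range, just above vehicle replicate 2. Its log2 fold change was -0.87 (SE 0.23, edgeR adjusted p = 0.0502), which lies at the threshold. H2-K1 was called in 8 of the 16 alternatives, with adjusted p = 0.00431 in DESeq2, 0.0386 in limma-voom and 0.0162 without S1P replicate 5, and up to 0.147 when another library was left out. H2-D1, the other classical heavy chain (chromosome 17, 35399475 to 35404644), had 67.0, 39.7, 55.5 and 51.7 CPM in vehicle and 48.5, 22.4, 31.6 and 23.1 CPM after S1P. It was ordered like H2-K1, with S1P replicate 5 above vehicle replicate 2, and its log2 fold change was -0.77 (SE 0.26, edgeR adjusted p = 0.106, 0.0215 without S1P replicate 5 and up to 0.268 without another library; called in 3 of the 16 alternatives). In bulk samples, fewer cells of a type and less RNA per cell cannot be told apart.

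**Figure D4:**
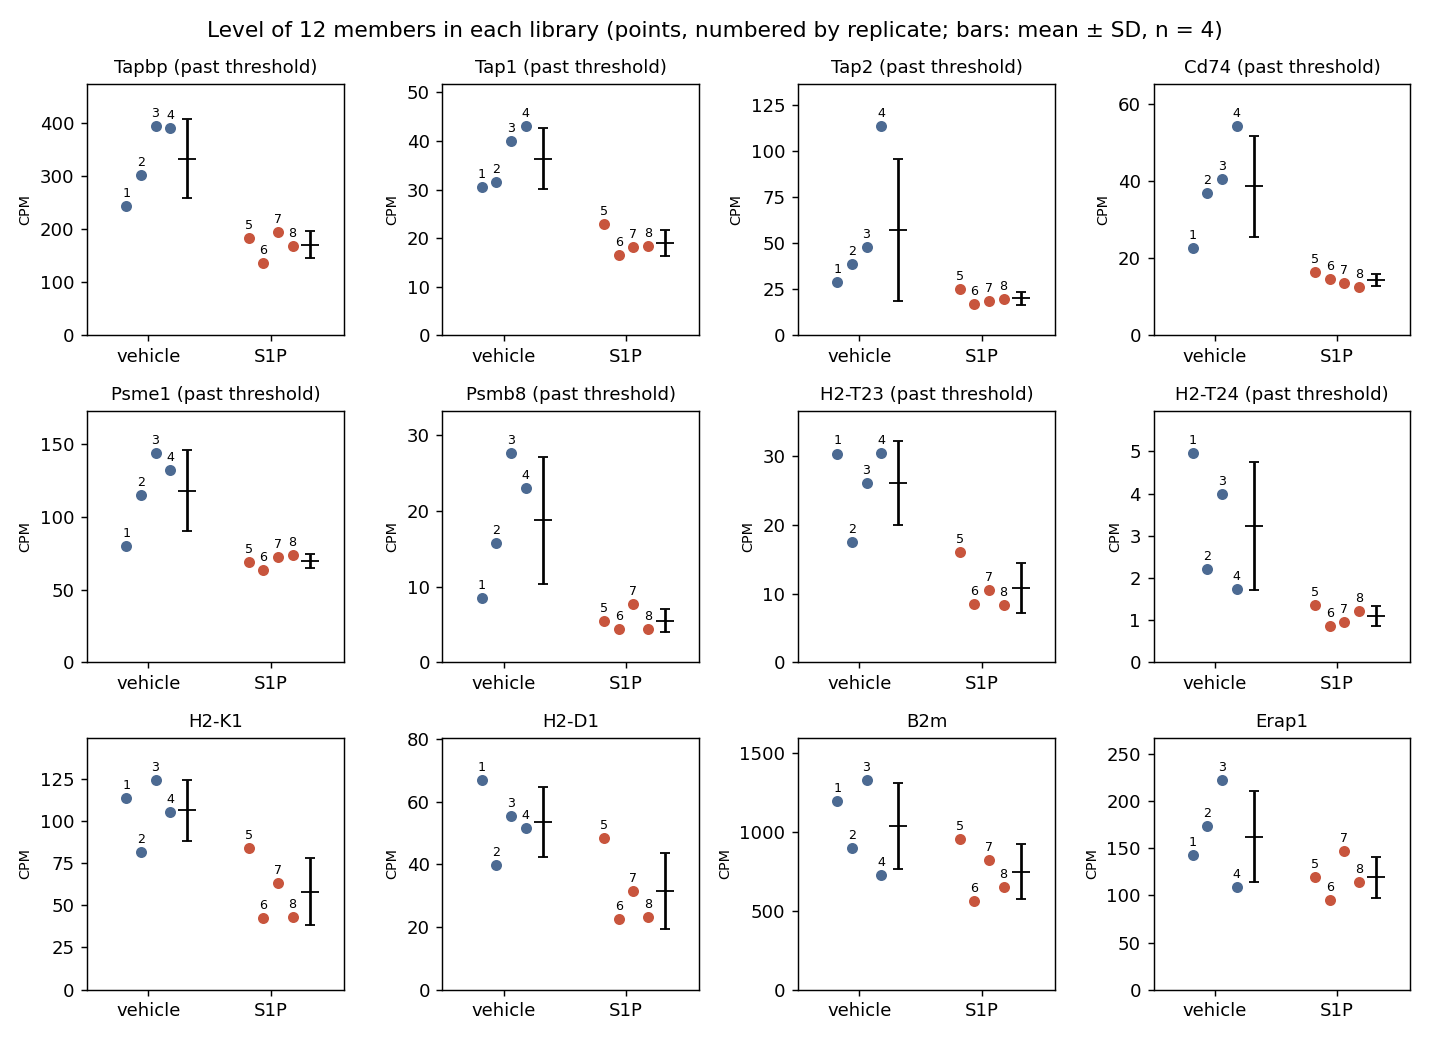
CPM of 12 genes in each vehicle (blue, replicates 1 to 4) and S1P (red, replicates 5 to 8) library, with the mean and SD of each group beside the points. The groups do not overlap for the 8 genes past the threshold, whereas S1P replicate 5 reaches the vehicle range for H2-K1, H2-D1 and B2m. S1P replicate 7 also does so for B2m, and S1P replicates 5, 7 and 8 do so for Erap1.

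Class I heavy chain genes resemble each other, and how reads that fit several of them were counted is not given. In the GENCODE M21 transcripts, 9.6% of the 50-base windows of H2-K1 and 12.8% of those of H2-D1 also occur in another gene. The share was 34.5% for H2-T22, 32% for H2-Q6, 21.8% for H2-Q4, 16.1% for H2-Q2 and 13.6% for H2-T23, and 0.6% to 3.2% for H2-M3, H2-M5 and H2-T24. Outside class I it was 22.7% for H2-DMb1, 24.8% for H2-DMb2, 28.3% for Psme2 and 70.5% for H2-Ke6, and at most 5.5% for the other tested genes. Values of the genes with large shares are uncertain to that extent. Moreover, the reference genome is that of a C57BL/6 mouse and the cells are of C3H origin, strains with different H2 haplotypes, so the levels of polymorphic heavy chains may be understated in both groups, which was not tested.

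Promoters of the class I chains share the letters of known control elements, and 4 are shown so that their order and spacing can be compared. Windows from 250 bases before to 50 bases after each start (RefSeq, GRCm38.p6) were found for 20 of the 25 tested genes and searched on both strands for GAAANNGAA (the core of the interferon-stimulated response element), TTCNNNGAA (the gamma activation site), GGGNNTTCC or GGGNNTTTC (NF-kB), TGACG (found in the X2 box) and CCAAT; the NF-kB forms can overlap each other. Below, capitals mark such matches, 5′ to 3′ on the gene's strand, at chr17:34000347-34000470 (minus) for H2-K1, chr17:35262911-35263057 (plus) for H2-D1, chr17:35379431-35379578 (plus) for H2-Q4 and chr2:122147536-122147650 (plus) for B2m.
H2-K1: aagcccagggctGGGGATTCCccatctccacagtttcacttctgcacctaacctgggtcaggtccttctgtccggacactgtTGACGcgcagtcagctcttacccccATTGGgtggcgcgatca
H2-D1: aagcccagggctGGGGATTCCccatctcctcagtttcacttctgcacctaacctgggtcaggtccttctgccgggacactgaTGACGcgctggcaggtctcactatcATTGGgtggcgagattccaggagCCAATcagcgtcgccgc
H2-Q4: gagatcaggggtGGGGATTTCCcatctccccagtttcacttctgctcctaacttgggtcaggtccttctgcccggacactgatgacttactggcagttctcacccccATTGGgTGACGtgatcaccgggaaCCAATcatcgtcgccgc
B2m: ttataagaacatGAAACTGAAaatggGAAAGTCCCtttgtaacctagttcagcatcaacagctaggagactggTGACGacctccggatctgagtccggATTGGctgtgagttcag

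In H2-K1 and H2-D1 the NF-kB letters began 70 bases before TGACG, and ATTGG, the reverse complement of CCAAT, began 25 bases after it. B2m had the same 25 bases between TGACG and ATTGG, and 47 bases between the NF-kB letters and TGACG. In H2-Q4 the marked TGACG came after ATTGG. At the place where H2-D1 has TGACG, H2-Q4 reads tgact, which the exact search did not count. A different order of elements in H2-Q4 is thus not shown. NF-kB letters were found in 5 of the 20 genes with a window (H2-K1, H2-D1, H2-Q4, H2-Q6 and B2m), against 10.8% of all genes with a window. H2-K1, H2-D1, H2-Q4 and H2-Q6 are related heavy chain genes with nearly the same NF-kB letters. The 20 windows are therefore not independent, and no enrichment is read from this share or those that follow. TGACG was found in 8 of 20, against 23% of all. The interferon element core was found in Psme1, B2m, H2-T22, H2-T23 and Erap1, that is in 5 of 20, against 9.76%. Only these exact letters were counted. The similar letters tttcacttc, in lower case above in H2-K1, H2-D1 and H2-Q4, do not match them. Absence from this list therefore does not show that a gene lacks an interferon element. The gamma activation site was found in Psmb8, H2-DMb2 and H2-M3, 3 of 20 against 9.55%, and CCAAT in 14 of 20 against 41.1%. Among the 5 genes that fell and had a window, 2 held the interferon core and none the NF-kB letters. A match is a description of these letters and not a sign of use in these cells.

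Nonclassical class I genes, which have narrower roles than H2-K1 and H2-D1, held 8 tested genes of 16, of which 2 fell and 6 did not pass, with a median log2 fold change of -0.98. H2-T23, which encodes Qa-1, a ligand of the natural killer receptor NKG2A (chromosome 17, 36166518 to 36170000), had 30.3, 17.4, 26.1 and 30.4 CPM in vehicle and 16.01, 8.498, 10.5 and 8.33 CPM after S1P. The groups did not overlap, and vehicle replicate 2 and S1P replicate 5 lay next to each other. H2-T23 fell 2.40-fold (log2 difference -1.27, SE 0.26, edgeR adjusted p = 0.0172), and lost the call when S1P replicate 6, 7 or 8 was omitted (adjusted p up to 0.0675). H2-T24, a class I gene of the same cluster (chromosome 17, 36142440 to 36157705), had 4.97, 2.22, 3.99 and 1.74 CPM in vehicle and 1.37, 0.872, 0.954 and 1.22 CPM after S1P. It fell 2.91-fold (log2 difference -1.54, SE 0.38, edgeR adjusted p = 0.0366), with no overlap, and of the 8 single-library omissions, those of vehicle replicate 2 or 4 alone kept the call (adjusted p elsewhere up to 0.122). The limma-voom test also missed the threshold for H2-T24, at an adjusted p of 0.0575.

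The stretch with the interferon core before the start of H2-T23 is shown since this gene fell and lacks the NF-kB and TGACG letters in its window (chr17:36032737-36032836, minus strand, GRCm38.p6).
H2-T23: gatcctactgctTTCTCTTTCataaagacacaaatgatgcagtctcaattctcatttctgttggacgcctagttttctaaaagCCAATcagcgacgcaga

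H2-T22, a class I gene recognised by some gamma-delta T cells, had the highest counts of the nonclassical genes, with 67.6, 71.8, 84.3 and 65.9 CPM in vehicle and 65.1, 51.9, 55.0 and 52.6 CPM after S1P. Its groups did not overlap, by a margin of less than 1 CPM between vehicle replicate 4 and S1P replicate 5, and the log2 fold change was -0.37 (edgeR adjusted p = 0.0998, or 0.0423 without vehicle replicate 4). H2-Q4 had 23.6, 19.9, 41.7 and 25.8 CPM in vehicle and 26.7, 11.3, 19.7 and 13.5 CPM after S1P. S1P replicate 5 exceeded 3 of the 4 vehicle libraries for this gene, and the log2 fold change was -0.64 (edgeR adjusted p = 0.235). H2-M3, which presents formylated peptides, had a log2 fold change of -0.80 (edgeR adjusted p = 0.0622, or 0.0399 to 0.182 when a library was left out). H2-M5, H2-Q2 and H2-Q6 were near 1 CPM, with log2 fold changes of -1.17, -1.30 and -0.23 (edgeR adjusted p = 0.0768, 0.148 and 0.779). For H2-Q6 the value turned to 0.29 without vehicle replicate 3.

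The genes that bring peptides to class I gave 3 of the 8 calls. Of 5 genes of transport, loading and trimming, all tested, 3 fell and 2 did not pass. Tapbp, or tapasin, which bridges TAP and the heavy chain (chromosome 17, 34052644 to 34066435), had 242, 302, 394.5 and 391 CPM in vehicle and 182, 135, 195 and 169 CPM after S1P. Every S1P library lay below every vehicle library. Tapbp fell 1.95-fold, from 332 ± 73.75 to 170 ± 25.7 CPM (SD, n = 4 libraries each; log2 difference -0.96, SE 0.18, edgeR adjusted p = 0.0123). Its span overlaps those of Daxx, Rgl2 and Zbtb22, at means of 25.9, 15.5 and 19.2 CPM, and how reads there were assigned is not given. Without any single library its log2 fold change stayed between -1.11 and -0.87, with adjusted p of up to 0.0475.

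Tap1, a chain of the peptide transporter (chromosome 17, 34324298 to 34334370), had 30.4, 31.6, 40.1 and 43.2 CPM in vehicle and 22.9, 16.6, 18.2 and 18.4 CPM after S1P. The groups did not overlap and both were narrow. Tap1 fell 1.91-fold, from 36.3 ± 6.28 to 19.0 ± 2.70 CPM (SD, n = 4 libraries each; log2 difference -0.93, SE 0.16, edgeR adjusted p = 0.00845). Tap2, its partner chain (chromosome 17, 34340272 to 34353466), had 28.7, 38.8, 47.9 and 113.7 CPM in vehicle and 25.3, 17.1, 18.6 and 19.5 CPM after S1P. Vehicle replicate 4 was far above the other vehicle libraries here, and vehicle replicate 1 lay only just above S1P replicate 5. Tap2 fell 2.85-fold (log2 difference -1.51, SE 0.39, edgeR adjusted p = 0.0453), and without vehicle replicate 4 the log2 fold change was -0.93 with the call kept (adjusted p = 0.015). The call was kept also without vehicle replicate 1 and lost without any of the other 6 libraries, with the limma-voom test and with no filter (adjusted p of up to 0.141). Without vehicle replicate 4, the value for Tap2 was close to that of Tap1.

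Tap1 holds TGACG before its start, shown because it fell in every alternative and lies head to head with Psmb9, which shares this promoter region (chr17:34187440-34187504, plus strand, GRCm38.p6).
Tap1: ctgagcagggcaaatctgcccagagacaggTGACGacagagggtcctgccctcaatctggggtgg

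Erap1, the aminopeptidase that trims peptides in the endoplasmic reticulum (chromosome 13, 74777120 to 74830183), had 143, 174, 223 and 109 CPM in vehicle and 119, 95.4, 148 and 114 CPM after S1P. The groups overlapped, with vehicle replicate 4 below 3 of the S1P libraries, and the log2 fold change was -0.45 (edgeR adjusted p = 0.241). Tapbpl, a tapasin relative that edits peptides, had a log2 fold change of -0.54 (edgeR adjusted p = 0.166). Its S1P replicate 5, at 20.3 CPM, lay within the vehicle range of 16.5 to 27.6 CPM, and its span overlaps that of Vamp1 (mean of 6.7 CPM). Thus the transporter and tapasin passed the test and the trimming enzyme did not; a difference between these genes was not tested. Erap1 holds the interferon core letters right at its start.

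The immunoproteasome swaps catalytic subunits of the standard proteasome for Psmb8, Psmb9 and Psmb10, and the Psme1 and Psme2 proteins form a ring that opens it. All 4 tested genes of this role were lower with no overlap of the groups, and 2 fell. Among all tested genes the groups did not overlap for 19.2%, and for 7.21% with S1P the lower. Psmb8 (chromosome 17, 34334466 to 34338599), beside Tap1 and Tap2, had 8.59, 15.8, 27.7 and 23.01 CPM in vehicle and 5.48, 4.43, 7.71 and 4.45 CPM after S1P. Vehicle replicate 1 was close to the S1P range, and vehicle replicate 3 was the highest. Psmb8 fell 3.40-fold (log2 difference -1.77, SE 0.36, edgeR adjusted p = 0.0166), and lost the call when S1P replicate 6 or 8 was omitted (adjusted p up to 0.0672).

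Psmb10 (chromosome 8, 108459428 to 108462492) had 15.1, 15.8, 17.8 and 49.1 CPM in vehicle and 14.4, 9.01, 9.76 and 7.83 CPM after S1P. As for Tap2, vehicle replicate 4 stood far above the rest. The log2 fold change was -1.25 (SE 0.40, edgeR adjusted p = 0.0906) and was -0.66 without vehicle replicate 4. Psme1 (chromosome 14, 56196760 to 56200566) had 80.04, 115, 144 and 132 CPM in vehicle and 69.0, 63.6, 72.1 and 74.0 CPM after S1P. The S1P libraries were tight and vehicle replicate 1 lay nearest to them. Psme1 fell 1.69-fold, from 118 ± 27.8 to 69.7 ± 4.58 CPM (SD, n = 4 libraries each; log2 difference -0.76, SE 0.17, edgeR adjusted p = 0.0257), and its call survived the omission of vehicle replicate 1 or 4 but of no other library (adjusted p elsewhere up to 0.0962). Psme2 (chromosome 14, 56206078 to 56210150), its partner in the ring, had 167, 193, 229.5 and 163 CPM in vehicle and 157, 136, 161 and 150 CPM after S1P. The gap between the groups was below 3 CPM, and the log2 fold change was -0.32 (SE 0.13, edgeR adjusted p = 0.166).

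The gamma activation site letters before Psmb8 are shown since this subunit fell (chr17:34198068-34198136, plus strand, GRCm38.p6). Psme1 holds the interferon core just after its start.
Psmb8: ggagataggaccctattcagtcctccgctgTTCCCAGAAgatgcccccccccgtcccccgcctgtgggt

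No standard counterpart of these genes passed the test. Of Psmb5, Psmb6, Psmb7, Psme3, Psme4 and the assembly factor Pomp, 6 were tested, 0 fell and 0 rose, and the median log2 fold change was 0.14. Psmb5 was at 43.6 CPM in vehicle replicate 4, 9.76 to 12.4 CPM in the other vehicle libraries and 12.5 to 16.6 CPM after S1P. Psmb6 was at 117 CPM, 61.9 to 64.0 CPM and 69.9 to 84.3 CPM in the same order. Results for these 2 genes without vehicle replicate 4 are not given here. Psmb7, a standard catalytic subunit, had 154.5 ± 24.4 CPM in vehicle and 193 ± 5.85 CPM after S1P, with no overlap of the groups (SD, n = 4 libraries each; log2 fold change 0.32, edgeR adjusted p = 0.155). Psme4, an activator of another kind, had 230 ± 42.9 and 259 ± 13.6 CPM (edgeR adjusted p = 0.491). Among 8 chaperones and peptidases that serve the endoplasmic reticulum and cytosol at large, 0 passed and the median was 0.01; Calr had 1217 ± 189 and 1168 ± 80.8 CPM, and Pdia3 1208 ± 254 and 1456 ± 66.3 CPM.

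In the class II group, the invariant chain fell while the class II chains themselves were hardly detected. Of 8 genes, 4 were tested, 1 fell and 3 did not pass. Cd74, which guards the class II groove and is also a receptor for the cytokine MIF, had 22.6, 37.0, 40.6 and 54.4 CPM in vehicle and 16.4, 14.7, 13.5 and 12.6 CPM after S1P. The groups did not overlap, and the vehicle libraries spread more than the S1P libraries. Cd74 fell 2.70-fold, from 38.7 ± 13.1 to 14.3 ± 1.62 CPM (SD, n = 4 libraries each; log2 difference -1.43, SE 0.24, edgeR adjusted p = 0.00775), and its adjusted p was at most 0.0345 when any library was left out.

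The DM chains, which exchange peptides on class II, were low. H2-DMa had 10.3, 7.12, 3.99 and 13.35 CPM in vehicle and 5.99, 5.30, 3.08 and 5.03 CPM after S1P. Vehicle replicate 3 lay within the S1P range, and the log2 fold change was -0.84 (edgeR adjusted p = 0.192). H2-DMb1 and H2-DMb2 had log2 fold changes of -0.73 and -1.54 (edgeR adjusted p = 0.127 and 0.159). H2-DMb2 was at 1.49 CPM in vehicle, and its value was -0.86 without vehicle replicate 4. The class II chains did not reach the count filter. H2-Aa had 11, 2, 5 and 1 counts in vehicle and 2, 0, 0 and 0 after S1P, and H2-Ab1 had 3 counts in vehicle replicate 1, 1 in S1P replicate 5 and 0 elsewhere. H2-Ea-ps had 4 counts, all in vehicle replicate 1, and H2-Oa 1 count in all. For H2-Aa, singled out after its values were seen, the summed counts were 19 and 2, a ratio of 0.105 (exact 95% interval of 0.0119 to 0.436, for counting error only).

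Markers of leukocytes were low. Most had lower means after S1P, but for those below the filter, such as Itgam and Emr1, the means rest on few counts. Of 12 leukocyte, macrophage and dendritic marker symbols, 8 were found and 2 tested, and 0 passed. Adgre1, among those not found, is the newer symbol of Emr1, which was found. The summed level of the 8 was 14.5 to 24.5 CPM in vehicle and 9.37 to 15.1 CPM after S1P, and these ranges overlapped. Most of that sum was Cd14, a lipopolysaccharide coreceptor, at 15.5 ± 5.04 CPM in vehicle and 9.48 ± 1.17 CPM after S1P, with no overlap of the groups (SD, n = 4 libraries each; edgeR adjusted p = 0.106). Lyz2, a lysozyme of myeloid cells, was at 3.27 ± 1.87 and 2.155 ± 1.705 CPM (SD, n = 4 libraries each; edgeR adjusted p = 0.528). Of the markers below the filter, Cd68 was at means of 0.732 and 0.544 CPM, Csf1r at 0.311 and 0.182, Itgam at 0.0737 and 0, and Emr1 at 0.0185 and 0.0182. Ptprc, which marks all leukocytes, and Itgax, of dendritic cells, had 0 counts in every vehicle library and means of 0.0544 and 0.0363 CPM after S1P. The summed level of 5 endothelial markers was 36.5 to 76.85 CPM and 17.2 to 44.0 CPM, nearly all Tek, at 54.8 ± 20.8 and 31.2 ± 12.05 CPM. The other 4 were under the filter, with Pecam1 at means of 0.253 and 0.0726 CPM, Cdh5 at 0.0556 and 0.0179, Emcn at 0.0552 and 0.0365, and Kdr at 0 and 0.0183. Cdh1, the one epithelial marker of 4 that was found, was at 2.00 and 1.92 CPM. The part of these markers in the result for Cd74 was not tested.

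The 2 coactivators were scarce. Nlrc5, the class I coactivator (chromosome 8, 96996463 to 97051372), had 7.52, 0.964, 3.47 and 1.74 CPM in vehicle and 4.04, 0.654, 0.807 and 0.862 CPM after S1P. Vehicle replicate 1 and S1P replicate 5 were the highest of their groups, S1P replicate 5 exceeded 3 vehicle libraries, and the log2 fold change was -1.10 (SE 0.75, edgeR adjusted p = 0.387). It was -2.13 without S1P replicate 5 and -0.40 without vehicle replicate 1. Ciita, the class II coactivator, was below the filter, with 10, 3, 3 and 6 counts in vehicle and 1, 1, 0 and 0 after S1P. Its summed counts of 22 and 2 give a ratio of 0.0909 (exact 95% interval of 0.0104 to 0.37, for counting error only, which leaves out the spread between libraries).

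The other genes under the filter were all class I relatives or pseudogenes. H2-T10 had 35 counts over the vehicle libraries and 25 over the S1P libraries, H2-Q10 11 and 12, H2-Q7 9 and 1, H2-K2 6 and 3, H2-M2 5 and 5, H2-Q1 5 and 2, H2-M6-ps 1 and 1, H2-M10.5 1 and 0 and H2-Bl 0 and 1. For H2-Q7, singled out after its values were seen, the ratio was 0.111 (exact 95% interval of 0.00253 to 0.802, for counting error only), with 6 of the 9 vehicle counts in vehicle replicate 4. For the others with counts in both groups, the interval of the ratio included 1.

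The symbol rule also took 2 genes of the H2 region with no role in presentation. H2-Ke2, a prefoldin subunit now named Pfdn6, had 14.2, 12.75, 11.8 and 22.7 CPM in vehicle and 19.2, 16.85, 12.9 and 15.4 CPM after S1P. The groups overlapped fully, with a log2 fold change of 0.06 (edgeR adjusted p = 0.881). H2-Ke6, a steroid dehydrogenase now named Hsd17b8, had 1.77, 2.00, 2.29 and 5.15 CPM in vehicle and 1.95, 1.67, 1.32 and 2.15 CPM after S1P. Vehicle replicate 4 set its mean, and the log2 fold change was -0.66 (edgeR adjusted p = 0.311). Their spans overlap those of Wdr46 and Slc39a7.

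Position was shared by most genes of the set, as 32 of the 41 lie on chromosome 17. Between 34075566 and 37620697 (mm9), the span of the H2 symbols, 18 genes of the set were tested, 5 fell and 0 rose, with a median log2 fold change of -0.85. Of 131 other genes in the span, 72 were tested, 3 fell and 2 rose, that is 4.17% lower, with a median of -0.32 and a negative value for 51. These neighbours include other immune genes, among them C4b and Cfb of complement. Beyond this span, Tapbp lies just before it, and Cd74 and Psme1, which fell too, lie on other chromosomes.

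Of the genes that carry the interferon signal to these promoters, 1 fell. The list of receptors, kinases, STAT and IRF factors had 18 tested genes of 19, with 1 lower, 0 higher, 16 negative and a median log2 fold change of -0.40. Ifnar1, a chain of the type I interferon receptor, had 215.5, 217, 193 and 188 CPM in vehicle and 156, 152, 161 and 145.5 CPM after S1P, and fell 1.32-fold (log2 difference -0.41, SE 0.10, edgeR adjusted p = 0.0325). The Ifnar1 groups were far apart for their narrow spread. Of the genes that did not pass, Stat2, Irf9, Irf7 and Stat3 lay nearest to the threshold. Their log2 fold changes were -0.69, -0.67, -1.34 and -0.45 (edgeR adjusted p = 0.0529, 0.0531, 0.0676 and 0.0729). The groups did not overlap for any of these, as for 7.21% of all tested genes with S1P the lower. For Irf7, S1P replicate 5 lay just below vehicle replicate 1, at 7.29 and 7.38 CPM. The ligands Ifnb1 and Ifna4 had at most 3 counts in a library and were not tested. The 7 MHC promoter factors (Rfx5, Rfxap, Rfxank, Nfya, Nfyb, Nfyc and Creb1) had 0 calls and a median of 0.00. Creb1 was at 86.5 ± 10.7 CPM in vehicle and 105 ± 16.2 CPM after S1P. Nfyb was at 43.0 ± 6.195 and 52.3 ± 1.46 CPM, higher after S1P with no overlap of the groups (log2 fold change 0.28, edgeR adjusted p = 0.196).

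Among neighbours of the pathway at the surface, 2 genes fell. Icosl, a costimulatory ligand for T cells, had 19.65, 17.8, 18.1 and 12.85 CPM in vehicle and 8.58, 3.70, 3.67 and 3.59 CPM after S1P. The groups did not overlap, with S1P replicate 5 nearest to vehicle, and Icosl fell 3.495-fold (log2 difference -1.81, SE 0.31, edgeR adjusted p = 0.0088). It was the 1 call among 3 tested costimulatory and checkpoint genes of 6. Cd1d1, a class I-like molecule that presents lipids, had 16.75, 14.4, 13.1 and 12.6 CPM in vehicle and 9.67, 7.63, 5.80 and 8.19 CPM after S1P, and fell 1.82-fold (log2 difference -0.86, SE 0.19, edgeR adjusted p = 0.025). It was the 1 call among 5 tested class I-like and natural killer ligand genes of 11. Class II route proteases had 5 tested genes of 6 and 0 calls, with Ctsd at 760 ± 148 and 617 ± 23.2 CPM and Ctsb at 644 ± 24.8 and 480 ± 55.7 CPM (edgeR adjusted p = 0.229 and 0.0516).

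Vehicle replicate 4 departed from the other vehicle libraries in a way that went in part with the base composition of the genes. Its log2(CPM + 0.5) minus the mean of the other 3 was 1.58 for Tap2 (56.9% GC in the longest transcript), 1.57 for Psmb10 (56.5%), 0.74 for Cd74 (56.6%), -0.63 for B2m (41.2%) and -0.69 for Erap1 (41.5%). Across the 25 genes, Pearson's r with GC content was 0.581 and Spearman's rho 0.636, which is a description, as the points share 1 library and genes are not independent. B2m and Erap1 were the genes of lowest GC, and no correlation was computed without them. Some genes of higher GC left the trend, such as H2-Q6 (54.9%) at -0.83 and H2-D1 (55.9%) at -0.03. The part of this in the calls was not tested beyond leaving the library out, which gave 10 genes lower.

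**Figure D5:**
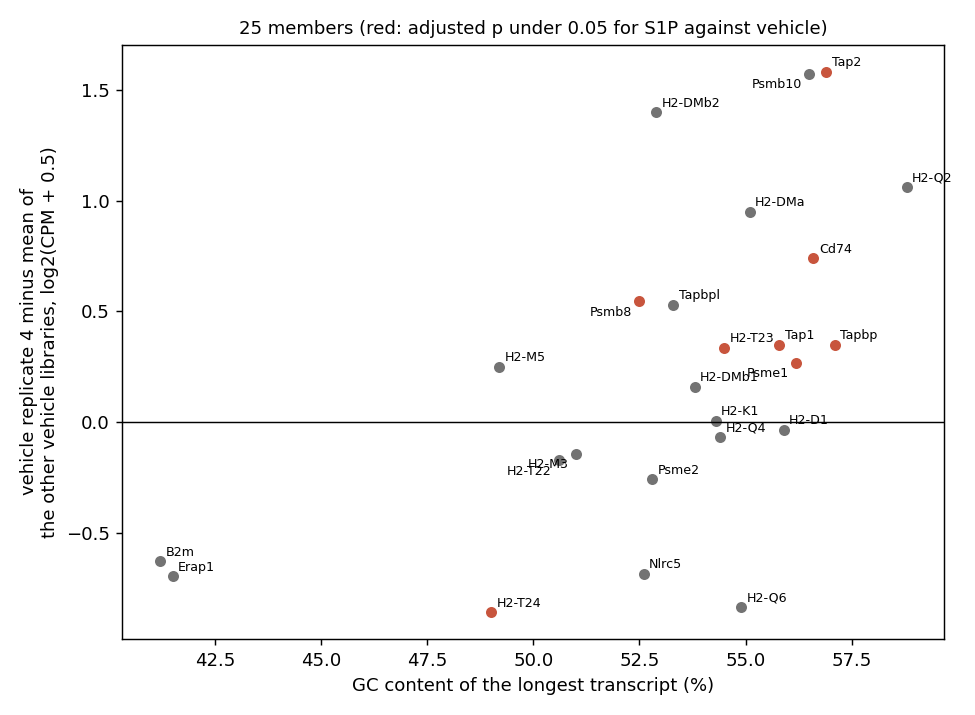
Deviation of vehicle replicate 4 from the mean of the other 3 vehicle libraries (vertical axis, log2(CPM + 0.5)) against GC content (horizontal axis, %) for 25 genes, red where the gene passed the test. Tap2 and Psmb10 lie at the top right and B2m and Erap1 at the lower left.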

How the data were processed

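RNA sequencing counts of 4 vehicle and 4 S1P libraries were analysed. The authors deposited raw counts, 1 row per Ensembl gene with mm9 coordinates. The submitters' processing notes name STAR 2.5.3a and mm9; for the counting tool, the annotation and the meaning of "sense" in the table's name, nothing is given in the sources used here. Column totals are nearly equal (13750303 to 13761544), so the depth before deposit is unknown and these totals are the depth used. No sample column was left unused.

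Genes were kept with filterByExpr (minimum count of 10), scaled with TMM factors and tested over all 8 libraries with edgeR 4.0.16 in R 4.3.3 (robust quasi-likelihood test, treatment as the only term, Benjamini-Hochberg adjustment, threshold of 0.05); SE came from the F statistic. CPM values use these factors. On simulated counts for 11761 genes of this comparison, 28% of 1.5-fold, 58% of 2-fold and 94% of 4-fold changes were recovered, with 6.08% false calls. The simulated counts used the spread typical of a gene's abundance and held no library that departs as vehicle replicate 4 does. Recovery in the real table can therefore differ. Exon lengths, GC content and 50-base windows came from GENCODE M21. The members and gene lists were chosen with earlier results of these data known. By rule, the text gives the value in every library for each member past the threshold and for the 2 most abundant members of each role. It does so also for Nlrc5 and Ciita, and names all other members. Of other lists it names genes past the threshold or else the 2 most abundant. Values of Stat2, Irf9, Irf7, Stat3, Psmb5 and Psmb6, and the mention of Ly6a and Cd80, were added after their values were seen. Alternatives were RLE or no factors, no filter or 1 CPM in 4 libraries, DESeq2 1.42.0, limma-voom (limma 3.58.1), 1 surrogate variable (sva 3.50.0) and leaving out libraries.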

Additional observations from a re-analysis of the deposited data

Results flagged for a closer look

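In 4 of the 54 groups of 4 values (27 genes, 2 groups each), 1 library stood farther from the other 3, relative to the range, than Dixon's 95% critical value; chance alone does this in about 1 group in 20. Psmb10 was at 49.1 CPM in vehicle replicate 4, where vehicle replicates 1 to 3 had 15.1 to 17.8 CPM. H2-Ke6 was at 5.15 CPM in vehicle replicate 4, against 1.77 to 2.29 CPM. Tapbpl was at 20.3 CPM in S1P replicate 5, against 12.1 to 13.2 CPM in the other S1P libraries. Nlrc5 was at 4.04 CPM in S1P replicate 5, against 0.654 to 0.862 CPM.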

How the results depend on the processing

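No paired analysis was run, as the replicate numbers of the groups (1 to 4 and 5 to 8) are not shared and the labels state no pairing. Vehicle replicate 1 and S1P replicate 5 were each the highest of their group for Nlrc5, and outside the set for Ly6a and Cd80. These genes were picked after their values were seen. Among the 25 tested genes with a role in presentation, S1P replicate 5 was the highest of its group for 18 and vehicle replicate 1 for 4. Whether vehicle and S1P libraries were matched, for example as cultures of 1 day, is unknown and was not tested. The fit used here would leave such matching in the spread within groups. The count of members called lower, 8, was 13 with DESeq2, 14 with 1 surrogate variable, 14 without vehicle replicate 4 and S1P replicate 5 together, and 3 to 10 when each library was left out in turn; no alternative called a member higher. Over the whole table, 344 lower genes became 804 with DESeq2, 1005 with 1 surrogate variable, 934 without both libraries and 101 to 723 with each library left out; 663 higher genes became 1459, 1178 and 333 to 1133 with the surrogate variable, without both and with each left out. The median log2 fold change of the members ranged from -0.98 to -0.74 when a library was left out. With each library left out, the log2 fold change of H2-Ke2 ranged from -0.042 to 0.32 and was negative without vehicle replicate 2 (-0.015), vehicle replicate 3 (-0.042) or S1P replicate 5 (-0.030); that of H2-Q6 ranged from -0.46 to 0.29 and was positive without vehicle replicate 3; the cause was not tested. Of 429 member values under alternatives, 370 kept sign and side of the threshold, 27 lost a call and 28 gained one. In the simulated counts, changes of 2-fold or less were often missed with 4 libraries per group.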
